A study of Citrullus lanatus with 4 samples.

Results

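Open flowers of the male sterile watermelon line DAH3615-MS were compared with open flowers of its male fertile near-isogenic line DAH3615, for all genes with at least 1 read counted in either flower library. This set held 19205 of the 23440 genes in the count table. DAH3615-MS carries the genic male sterility genotype msms, derived from the Chinese ms-1 source, and DAH3615 is its heterozygous fertile counterpart (Msms). The plants of both lines came from the same segregating population and were grown in a greenhouse, and flowers were taken on the day they first opened. According to the study, the flowers of DAH3615-MS are smaller, with defective stamens and no pollen grains. RNA-seq was performed on 1 library from each line, so the ratios below compare those libraries, and no p-value was computed. The sources used here do not say how many plants were pooled for a library, or whether the flowers were male or female, which watermelon usually bears separately. Floral buds of both lines, taken a day before flowering and shorter in DAH3615-MS, were also sequenced with 1 library each and are given below as a second organ, not as replicates.

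In a fertile flower, the anther carries microspores that mature into pollen grains, surrounded by a tapetum that feeds them and supplies the pollen coat. Maturing pollen stores transcripts for the pollen tube, which germinates on the stigma and grows by adding wall material at its tip. That growth relies on pectin and its modifying enzymes, on actin and microtubules, and on calcium and phosphoinositide signals. In genic male sterility, a mutation in the nuclear genome stops the formation of functional pollen while the plant and the female organs remain usable for hybrid seed production.

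A total of 5239032 counts fell on genes in DAH3615-MS flowers and 6315796 in DAH3615 flowers, and the floral bud libraries were of similar size (5778852 and 5631190). Genes with at least 1 count numbered 18104 in DAH3615-MS flowers and 18769 in DAH3615 flowers. Levels are given as counts, or as CPM, the counts per 1000000 after scaling by TMM factors, which correct library totals for differences in composition. At these depths 3 counts corresponded to 0.553 CPM in DAH3615-MS flowers and 0.508 CPM in DAH3615 flowers. A gene was called lower or higher in DAH3615-MS when its scaled ratio reached 4-fold and its higher library held at least 20 counts. Counts under 3 were set to 3 for the calls and for all log2 ratios, which are DAH3615-MS over DAH3615, so a fold against 0 counts is a lower bound. A ratio printed in brackets beside the counts of a gene is instead DAH3615 over DAH3615-MS, the fold by which the gene was lower in DAH3615-MS, and uses the counts as they are, also where these are 1 or 2. Such a ratio is uncertain and is not comparable with the lower bounds. Intervals are exact 95% intervals of the ratio and, like the shares' Wilson intervals, cover counting error only, not the variation between plants.

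DAH3615-MS flowers differed from DAH3615 flowers mainly in genes that were lower. A total of 798 genes were lower in DAH3615-MS, 4.16% of the genes with a count, and 28 genes were higher, 0.146% of them. The imbalance grew with the size of the ratio. At 2-fold, 1470 genes (7.65%) were lower and 303 (1.58%) were higher. At 8-fold, 582 genes (3.03%) were lower and 5 (0.026%) were higher. At 16-fold, 428 genes (2.23%) were lower and 1 (0.00521%) was higher. At 64-fold, 259 genes (1.35%) were lower, and at 256-fold 113 genes (0.588%) were, with 0 genes higher at either size. The remaining flower transcriptome was close between the lines, since 12926 of the 14699 genes with at least 20 counts in either flower library (87.9%) lay within 2-fold of each other. The median log2 ratio over all 19205 genes was 0.05, but TMM scaling centres this value, which was 0.20 with library totals. At the 4-fold threshold, Cla005269 had 14 counts in DAH3615-MS flowers and 61 in DAH3615 flowers and was just inside as a lower gene, while Cla010355 had 152 and 661 counts and was just outside.

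**Figure D1:**
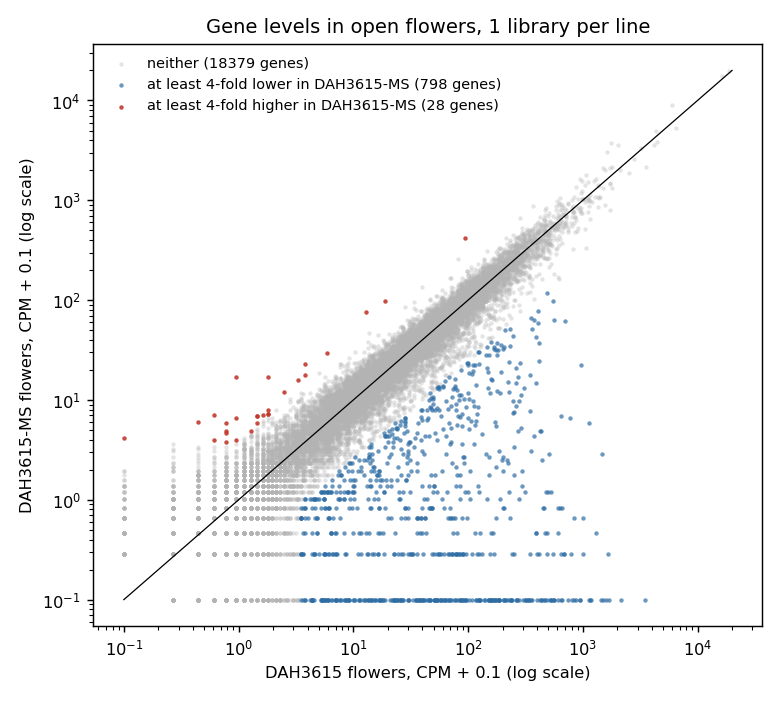
Level of each gene in DAH3615-MS flowers (vertical axis) against DAH3615 flowers (horizontal axis), both as CPM + 0.1 on log scales, with 1 point per gene and the line of equal levels. The 798 lower genes (blue) spread down to the row of points at 0 counts in DAH3615-MS, whereas the 28 higher genes (red) stay mostly at low levels.

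The calling rule set the direction in which the lower genes differ as a set, so only the size of their share is described. Together they received 17766 counts in DAH3615-MS flowers, 0.339% of that library (0.334% to 0.344%), and 633925 counts in DAH3615 flowers, 10.04% of that library (10.01% to 10.06%). Their median level was 0.737 CPM in DAH3615-MS flowers and 44.4 CPM in DAH3615 flowers. A lower gene had to hold at least 20 counts in DAH3615 flowers, so the rule itself kept weaker genes out. The level of the lower genes in DAH3615 flowers is therefore not read against that of all genes. Of the 100 genes with the most counts in DAH3615 flowers, 21 were lower in DAH3615-MS flowers, beside 4.16% of all genes. None of the 100 genes with the most counts in DAH3615-MS flowers was higher there, beside 0.146% of all genes. Each ranking used a library that also entered the calls and so favours called genes. Neither count is therefore read as a result about abundant genes. In these bulk samples, fewer pollen or anther cells and less RNA per cell cannot be told apart.

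How much was left in DAH3615-MS flowers varied among the lower genes. No read was counted in DAH3615-MS flowers for 226 of them, which is 1.18% of all genes compared, and each of these held at least 20 counts in DAH3615 flowers, with a median of 313. In the opposite direction, 1 gene (0.00521%) had 0 counts in DAH3615 flowers and at least 20 in DAH3615-MS flowers. A further 158 lower genes kept 1 to 3 counts in DAH3615-MS flowers, 172 kept 4 to 10, 150 kept 11 to 50 and 92 kept more than 50. In terms of level, 86 lower genes still reached 10 CPM or more in DAH3615-MS flowers. Cla005288 kept the most of all lower genes, with 644 counts in DAH3615-MS flowers and 2876 in DAH3615 flowers, 4.10-fold lower in DAH3615-MS.

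The 10 lower genes with the most counts in DAH3615 flowers held 18 counts together in DAH3615-MS flowers and 103256 in DAH3615 flowers, 1.63% of all counts in the DAH3615 flower library. The first of them was Cla000032, described as a beta-D-glucosidase, an enzyme class that releases glucose from the ends of glucosides. It had 0 counts in DAH3615-MS flowers and 20640 in DAH3615 flowers, at least 6319-fold lower, and 4 and 12713 counts in the floral buds of the same lines. With counts under 3 set to 3, no gene of the comparison showed a larger difference. Cla009288 on chromosome 6 had 0 counts in DAH3615-MS flowers and 12762 in DAH3615 flowers, at least 3907-fold lower. Cla018671 on chromosome 4 had 1 count in DAH3615-MS flowers and 9841 in DAH3615 flowers (ratio 9039, 1622 to 357039, on the counts as they are). Neither has a description in the table used here. The neighbours Cla005855 and Cla005856 on chromosome 1 were also among these 10 genes, with 2 and 0 counts in DAH3615-MS flowers and 7647 and 8908 in DAH3615 flowers.

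Descriptions were at hand for 1908 of the 19205 genes, those with the lowest gene IDs, and 74 of the described genes (3.88%) were lower and 1 was higher. The share of lower genes is close to the 4.16% of all genes. The description was other than unknown for 1586 of the 1908 genes and for 61 of the 74 lower ones. Keywords sorted only part of the described genes into 23 lists, and a gene could be in more than 1 list. Lower members were found in 14 of the lists, and the lists of pollen, cell wall and cytoskeleton proteins are given first. Their counts of lower members are to be read beside the 4.16% of all genes, and no set test was run.

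Of the genes described as pollen proteins, 3 of 5 were lower in DAH3615-MS flowers, with a median log2 ratio of -3.34 over the 5 genes beside 0.05 over all genes. Cla002347, described as pollen allergen Phl p 11, had 6 counts in DAH3615-MS flowers and 3120 in DAH3615 flowers, a 478-fold difference (219 to 1302). Phl p 11 is a timothy grass protein of the same family as the olive allergen Ole e 1, secreted proteins that are abundant in pollen. Cla003043, an Ole e 1 and extensin family protein, had 8 counts in DAH3615-MS flowers and 170 in DAH3615 flowers. In the floral buds the same gene had 108 counts in DAH3615-MS and 1142 in DAH3615. It was thus lower in both organs, and its DAH3615-MS counts were fewer in the flower than in the bud. Cla001499, of the same family, had 1 and 33 counts in flowers. The 2 members that did not pass had few counts in both lines, 12 and 10 for Cla002155 and 8 and 10 for the pollen preferential protein Cla003156.

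Pectin is the matrix polysaccharide that forms the tip wall of the pollen tube. Among 13 genes described as pectin-modifying enzymes or their inhibitors, 3 were lower, beside 4.16% of all genes. The list's median log2 ratio was -1.32. Cla001889, a pectinesterase, which removes methyl groups from pectin and thereby stiffens or opens the wall, had 2 counts in DAH3615-MS flowers and 3618 in DAH3615 flowers (ratio 1661, 460 to 13725). Cla000817, with a domain of invertase and pectin methylesterase inhibitors, had 0 and 1406 counts. Cla000006, a polygalacturonase that cuts the pectin backbone, had 0 counts in DAH3615-MS flowers and 1108 in DAH3615 flowers, at least 339-fold lower, and 0 and 1262 counts in the buds. The 10 other members did not pass. The most abundant of these was the pectate lyase Cla002742, with 352 counts in DAH3615-MS flowers and 1000 in DAH3615 flowers (ratio 2.61, 2.31 to 2.95).

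Expansins, which loosen cell walls, and hydrolases of xyloglucan and glucan had 2 lower genes of 14, beside 4.16% of all genes. The list's median of -0.11 was close to that of all genes. Besides the beta-D-glucosidase named above, the expansin-like gene Cla001151 had 0 counts in DAH3615-MS flowers and 219 in DAH3615 flowers, at least 67.0-fold lower. In contrast, the glucan endo-1,3-beta-glucosidase Cla001095 had 656 counts in DAH3615-MS flowers and 700 in DAH3615 flowers (ratio 0.98, 0.88 to 1.09). Glucan endo-1,3-beta-glucosidases digest callose, among others the callose that encloses microspores.

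Among cytoskeleton and Rop signalling genes, 3 of 21 were lower, beside 4.16% of all genes, and the median was -0.01. LIM domain proteins bundle actin filaments in plants, and profilin binds actin monomers. The LIM domain gene Cla001608 had 1 count in DAH3615-MS flowers and 5913 in DAH3615 flowers, and 1 and 3772 counts in the buds. The flower ratio on these counts was 5431, with a wide counting interval of 974 to 214542 because it rests on 1 count (log2 ratio -10.82 with the floor of 3 counts). The profilin gene Cla000908 had 4 and 282 counts in flowers (ratio 64.8, 25.0 to 239). Alpha tubulin, a subunit of microtubules, was represented by genes that did not move together. Tubulin alpha-1 (Cla001615) had 9 counts in DAH3615-MS flowers and 473 in DAH3615 flowers (ratio 48.3, 25.2 to 106). Tubulin alpha-2 (Cla003129) had 136 and 307 counts (ratio 2.07, 1.69 to 2.56) and did not pass the 4-fold rule.

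The study designed qRT-PCR primers for 21 assays, and 4 of them matched exactly 1 gene ID through the UniProt identifier. Identifiers were at hand for only 1999 of the 23440 gene rows. A match is thus unique only among those rows, and assays of other genes could not be matched. The primers of the LIM domain gene (chromosome 2, 7996672 to 7998106, version 1 of the reference genome), of the polygalacturonase (chromosome 0, 6029352 to 6029806, where chromosome 0 collects unplaced sequence) and of an elongation factor 1-alpha gene (chromosome 2, 31224958 to 31226409) are shown, 5′ to 3′, since these 3 genes were lower in DAH3615-MS. The primers were not aligned to the genome, and a gene with the same UniProt identifier need not be the one that was assayed.
LIM domain protein Cla001608, forward: gaaagcagaaaagcccaccg
LIM domain protein Cla001608, reverse: gtcccgttcaccgtaacctt
Polygalacturonase Cla000006, forward: agcccaaacaccgatggaat
Polygalacturonase Cla000006, reverse: gtcctggtccgcaagttaca
Elongation factor 1-alpha Cla000553, forward: ttgagatgcaccacgaagct
Elongation factor 1-alpha Cla000553, reverse: gaagcaacgaaaccacgctt

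Elongation factor 1-alpha carries aminoacyl-tRNA to the ribosome and is often taken as a reference gene. The matched gene Cla000553 had 16 counts in DAH3615-MS flowers and 1106 in DAH3615 flowers, a 63.5-fold difference (38.9 to 111). In the floral buds it had 26 counts in DAH3615-MS and 794 in DAH3615. The gene matched to the fourth assay, the zinc finger gene Cla002114, had 0 counts in DAH3615-MS flowers and 3 in DAH3615 flowers, so this match is in doubt. A gene's reads can be shared with near-identical copies, and this was not examined.

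Copper oxidases and laccases formed the list with the largest median, a log2 ratio of -10.69 over 6 genes. Of these, 5 were lower, beside 4.16% of all genes. The 5 lay in 1 block, so the median mainly reflects 1 locus. Multi-copper oxidases pass electrons from a substrate to oxygen. Laccases act on phenolics such as lignin precursors, and pollen proteins of tobacco and rapeseed resemble L-ascorbate oxidase. The 5 lower genes were direct neighbours on chromosome 2 (34364219 to 34385090) and received 0 counts in DAH3615-MS flowers and 26367 counts in DAH3615 flowers. In order of position these were the multi-copper oxidase Cla003119, with 0 and 5175 counts, Laccase-6 (Cla003118), with 0 and 1895, and the L-ascorbate oxidase-like gene Cla003117, with 0 and 5635. They were followed by Laccase-3 (Cla003116), with 0 and 6647, and Laccase-8 (Cla003115), with 0 and 7015. In floral buds the same 5 genes had 9 counts in DAH3615-MS, against 16755 in DAH3615. None of the 3 further genes that lay within 30 kb was lower, although Cla003121, described as a RING finger protein, had 226 counts in DAH3615-MS flowers and 877 in DAH3615 flowers (ratio 3.56, 3.08 to 4.14). The sixth member of the list, Laccase-22 (Cla001819) on chromosome 1, had 156 and 209 counts (ratio 1.23, 0.995 to 1.52).

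Pathogenesis-related protein 1 (PR-1) genes encode small secreted proteins that are mostly known from responses to pathogens, and some members of this family are made in floral organs. Among the 38 genes in the list of defence proteins, 5 were lower, beside 4.16% of all genes, and the median was 0.02. The PR-1 genes Cla001625, Cla001626 and Cla001627 were adjacent on chromosome 2. They had 0 counts each in DAH3615-MS flowers, against 1854, 1873 and 1213 counts in DAH3615 flowers, so each was at least 371-fold lower. Cla001631, 4 genes further along, had 0 and 972 counts and was at least 298-fold lower. The other genes described as PR-1 were at or near 0 in both lines, and the most abundant, Cla001621, had 6 and 17 counts. The fifth lower gene of the list was a transporter described as multidrug resistance protein mdtK (Cla001240), with 3 and 433 counts. The first 3 PR-1 genes share the same best UniProt match, and reads shared between them were not examined.

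Acetyl xylan esterases remove acetyl groups from xylan, a hemicellulose. Both genes with this description, Cla002736 and Cla002734, lay in a block of 6.21 kb on chromosome 7 (460105 to 466315). Cla002736 had 0 counts in DAH3615-MS flowers and 4375 in DAH3615 flowers, at least 1339-fold lower. Cla002734 had 0 and 496 counts, and the gene between them, Cla002735, described as a receptor protein kinase-like protein, had 0 and 333. All 3 had 0 counts in DAH3615-MS floral buds, too, whereas DAH3615 floral buds had 3431 counts on them. None of the 6 flanking genes within 30 kb was lower.

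**Figure D2:**
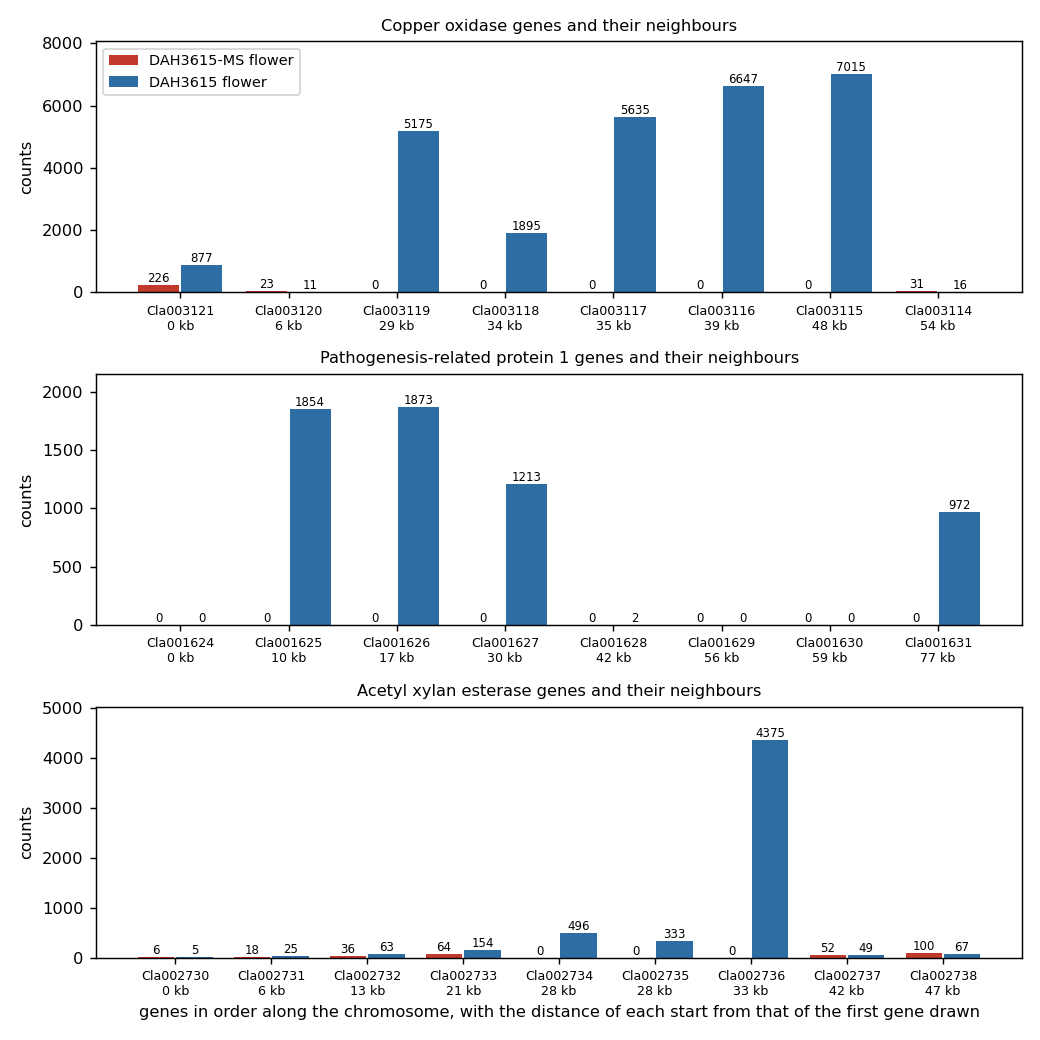
Counts in DAH3615-MS flowers (red) and DAH3615 flowers (blue) of neighbouring genes, in order along the chromosome, with the distance of each gene's start from that of the first gene drawn in kb. The copper oxidase genes, 4 PR-1 genes and the acetyl xylan esterase block stand at 0 counts in DAH3615-MS and at 333 to 7015 counts in DAH3615, while most genes around them are low in both lines.

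The shares of lower genes in the signalling lists were read against the 4.16% of all genes, and with 1 to 3 lower genes per list they cannot be set apart from it. Of 22 calcium signalling genes, 1 was lower (median -0.05), namely Cla002030, described as a calcium binding protein, with 0 counts in DAH3615-MS flowers and 222 in DAH3615 flowers. Calmodulin 5 (Cla003151), a calcium sensor, had 314 and 1262 counts (ratio 3.69, 3.26 to 4.19) and stayed under the 4-fold rule. Of 14 phosphoinositide genes, 1 was lower (median 0.36), the phosphatidylinositol-4-phosphate 5-kinase family gene Cla003061, whose enzyme class makes the membrane lipid PIP2. It had 1 and 158 counts (ratio 145, 25.7 to 5768). Of 53 receptor kinase genes, 3 were lower (median 0.12, and 0.03 over the 31 with at least 20 counts in either flower library). The value 0.12 is what the floor and the scaling give any gene with 3 counts or fewer in both flower libraries. Besides Cla002735 these were the leucine-rich repeat gene Cla002653, with 0 and 154 counts, and Cla001554, which kept 130 counts in DAH3615-MS flowers against 1336 in DAH3615 flowers (ratio 9.44, 7.88 to 11.4). Of 24 ethylene and auxin genes, 1 was lower, the auxin-induced SAUR-like gene Cla001873. The median of this list was also 0.12, and -0.15 over the 15 genes with at least 20 counts. Cla001873 had 14 counts in DAH3615-MS flowers and 1187 in DAH3615 flowers, and 121 and 787 counts in the buds.

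Arabinogalactan, GPI-anchored and hydroxyproline-rich proteins sit at the outer face of the plasma membrane or in the wall. Among 13 such genes, 4 were lower, beside 4.16% of all genes (median 0.06). The GPI-anchored protein Cla002276 had 0 counts in DAH3615-MS flowers and 314 in DAH3615 flowers. The late embryogenesis abundant hydroxyproline-rich protein Cla002040 had 1 and 85 counts, and the other 2 were the Ole e 1 and extensin family genes given above. Cla002040 was also 1 of the 2 lower genes among 7 desiccation proteins (median -1.12), a class that protects drying tissues such as seeds and mature pollen. The other was the ABA-inducible gene Cla000005, with 0 and 25 counts.

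Sugar transporters load developing pollen with carbon. Of 12 such genes 2 were lower in flowers, beside 4.16% of all genes (median -0.26). Both were called from counts close to the minimum of 20. In lists this small, 1 or 2 lower genes cannot be set apart from that share. Sucrose transporter 6 (Cla000359) had 0 counts in DAH3615-MS flowers and 24 in DAH3615 flowers, and 0 and 321 counts in floral buds. The sugar transporter N3 gene (Cla000966) had 0 and 34 counts in flowers and 0 and 307 in floral buds. Both were therefore at 0 in DAH3615-MS in either organ, and in DAH3615 their counts were higher in the bud. Of 11 heat shock genes, 1 was lower (median -0.01), Cla003135, with 5 and 26 counts. Its interval of the ratio, 1.80 to 15.9, includes values under 4-fold.

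Phi-1 proteins, first known as phosphate-induced genes of tobacco cells, were outside the lists but among the described genes with the largest ratios. Cla001385 had 0 counts in DAH3615-MS flowers and 2133 in DAH3615 flowers, at least 653-fold lower. Cla001387, also on chromosome 9, had 0 and 1552 counts.

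No member was lower in 9 lists, which held between 3 and 15 genes with a flower count. With 4.16% of all genes lower, lists of this size hold few or none, so nothing particular to them is read from this. These were floral identity factors, MYB and bHLH factors, phenylpropanoid enzymes, lipases, photosynthesis, cation and potassium transport, terpene and carotenoid enzymes, cell cycle genes with histones, and cytosolic ribosomal proteins. MADS-box 2 (Cla000691), a member of the family of transcription factors that specify floral organs, had 1414 counts in DAH3615-MS flowers and 1587 in DAH3615 flowers (ratio 1.03, 0.96 to 1.11). Another MADS-box gene, Cla002356, had 3 and 16 counts, under the minimum of 20. For green tissue, the oxygen-evolving enhancer protein of photosystem II (Cla001790) had 2655 and 2888 counts (ratio 0.999, 0.947 to 1.05). The chlorophyll a-b binding protein Cla001764 had 2350 and 2370 counts. The medians of the photosynthesis, cell cycle and ribosomal protein lists were 0.11, 0.36 and -0.13. As cell type markers, 3 of the 5 pollen-named genes were lower in DAH3615-MS flowers. The profilin and LIM domain genes, also lower, were counted as pollen markers with earlier results of these data known. In their list of 21 genes, 18 were not lower. Of the 23 genes in the lists for floral organ identity, green tissue and dividing cells, 0 were lower, beside 4.16% of all genes. With that share, 23 genes hold few or none, so no contrast between cell types is read from these markers.

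**Figure D3:**
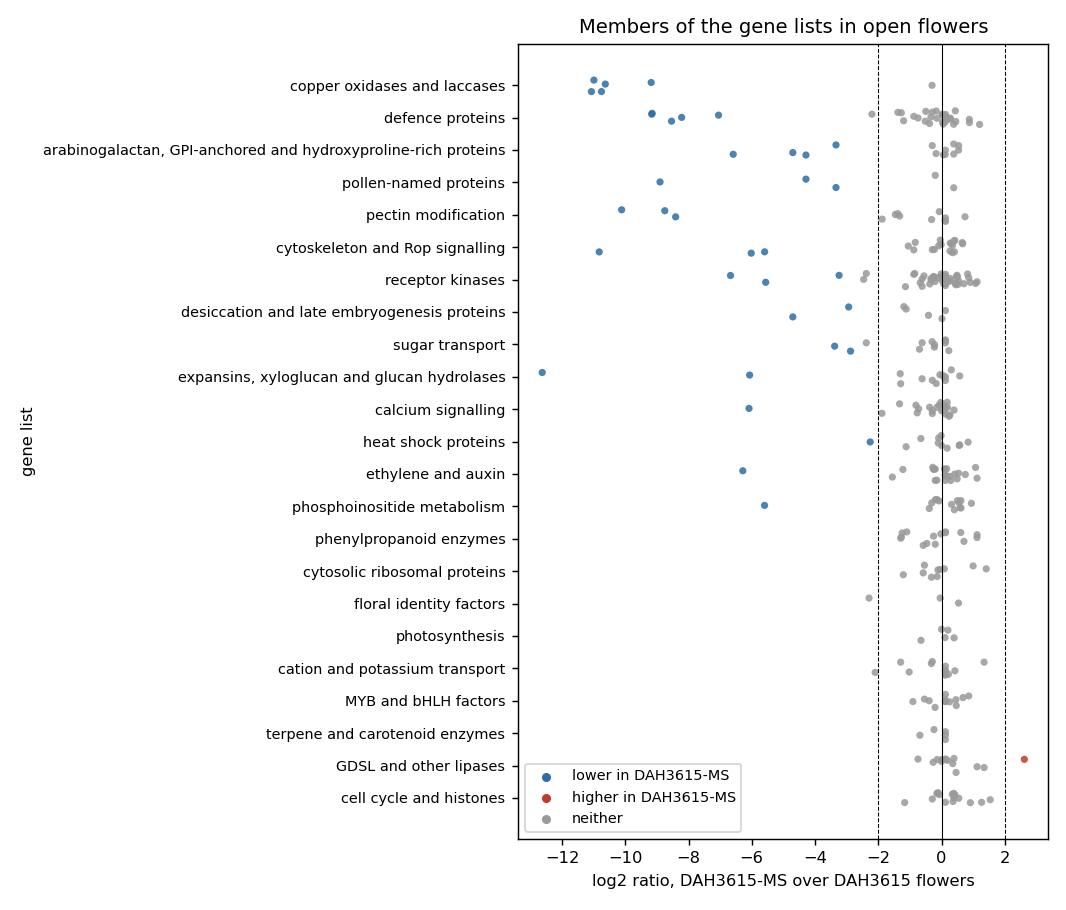
log2 ratio of DAH3615-MS over DAH3615 flowers for each member of 23 gene lists, with counts under 3 set to 3. Dashed lines mark 4-fold, blue points are lower genes, the red point is the higher lipase gene and grey points passed neither rule. In most lists the members crowd near 0 with a few far to the left, except for the copper oxidases, of which 5 of 6 lie beyond -9.

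The 28 genes higher in DAH3615-MS flowers were few and mostly weakly expressed. They received 0.0861% of the counts in DAH3615-MS flowers (0.0836% to 0.0886%) and 0.0153% in DAH3615 flowers (0.0144% to 0.0163%). The calling rule set this direction for the 28 genes. Of these genes 18 had fewer than 50 counts in DAH3615-MS flowers. Cla019897 on chromosome 2 had the most counts, 2295 in DAH3615-MS flowers and 550 in DAH3615 flowers, a 4.54-fold difference (4.14 to 4.995). In floral buds it had 500 counts in DAH3615-MS, against 166 in DAH3615. Cla015470 had 408 and 76 counts in flowers (5.85-fold higher, 4.57 to 7.57) and was nearly absent from the floral buds, with 6 and 0 counts. Cla016980 had 161 and 34 counts in flowers (5.16-fold higher, 3.54 to 7.70) and 150 and 43 in floral buds.

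The only described gene among the 28 was the lipase Cla000709, with 124 counts in DAH3615-MS flowers and 22 in DAH3615 flowers (6.14-fold higher, 3.88 to 10.1). It was the only one of 14 lipase genes called in either direction, and the list's median was 0.16. Lipases of plants cut fatty acids from glycerolipids. Cla012483 had 22 counts in DAH3615-MS flowers, against 0 in DAH3615 flowers, and was at least 7.98-fold higher. It was the single gene of the comparison at 0 in DAH3615 flowers and at 20 counts or more in DAH3615-MS flowers.

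**Figure D4:**
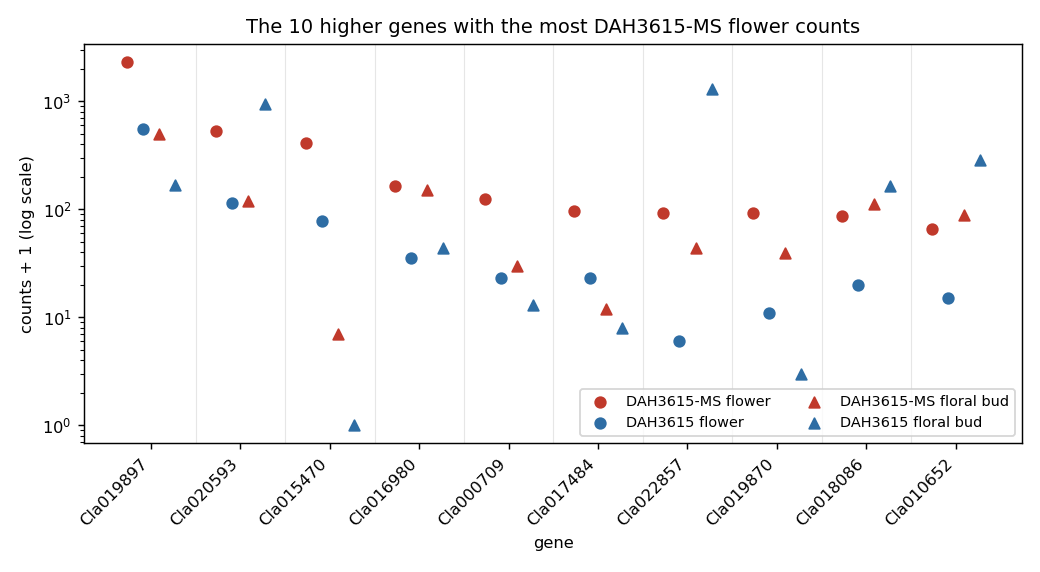
Counts + 1 (log scale) of the 10 higher genes with the most counts in DAH3615-MS flowers, in DAH3615-MS (red) and DAH3615 (blue) flowers (circles) and floral buds (triangles). Cla019897, Cla016980, Cla015470, Cla000709, Cla017484 and Cla019870 have more counts in DAH3615-MS in both organs. In floral buds, Cla020593, Cla022857, Cla018086 and Cla010652 have more counts in DAH3615.

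The floral bud libraries, which entered the calls in flowers only through the TMM factors, were read with the same rule. With factors from the flower libraries alone, the calls in flowers were also 798 and 28. In floral buds, 852 of 19158 genes (4.45%) were lower in DAH3615-MS and 36 (0.188%) were higher. A total of 636 genes were lower in both organs, which is 79.7% of the flower list and 74.6% of the bud list. The genes lower in flowers had a median log2 ratio of -4.27 in flowers and -4.31 in floral buds, and none of them was higher in the buds. The 226 genes at 0 in DAH3615-MS flowers included 147 that were also at 0 in DAH3615-MS floral buds, 61 with 1 to 3 counts there and 18 with more. For comparison, 18190 of the 19732 genes with a count in any library had a count in DAH3615-MS floral buds. Flowers and floral buds of a line were collected from the same population, and whether they came from the same plants is not stated.

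A total of 162 genes were lower in flowers but not 4-fold lower in floral buds. Of these, 47 had fewer than 20 counts in both bud libraries and so could not pass there. The other 115 had a median log2 ratio of -2.44 in flowers, beside -4.27 for all 798 lower genes. Their median in floral buds was -1.12, and 55 of them lay within 2-fold there. Cla006639 had 340 counts in DAH3615-MS flowers and 3346 in DAH3615 flowers (ratio 9.04, 8.08 to 10.1), and 1647 and 3471 counts in the buds. Cla005100 had 185 and 984 counts in flowers and was level in the buds, with 854 and 849. Cla000811, described as a trichome birefringence protein, a family that acetylates wall polysaccharides, had 5 and 260 counts in flowers and 98 and 206 in the buds. In these 3 genes the loss in DAH3615-MS was thus larger in the open flower, but the difference between organs was not tested. They were chosen after their values were seen.

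Of the 28 higher genes 1 (3.57%) was also higher in floral buds, beside 0.188% of all genes in the buds. A further 2 were lower there and 25 passed neither rule. Since 16 of the 28 had fewer than 20 counts in both bud libraries, these could not pass. The shared gene was Cla019870 on chromosome 2, with 91 counts in DAH3615-MS flowers and 10 in DAH3615 flowers (9.91-fold higher, 5.15 to 21.4), and 38 and 2 counts in the buds. The median log2 ratio of the 28 genes was 2.37 in flowers, where the rule required 4-fold, and 0.04 in floral buds. The bud value rests largely on genes with few counts, some at the floor, and does not show that these genes were level there.

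**Figure D5:**
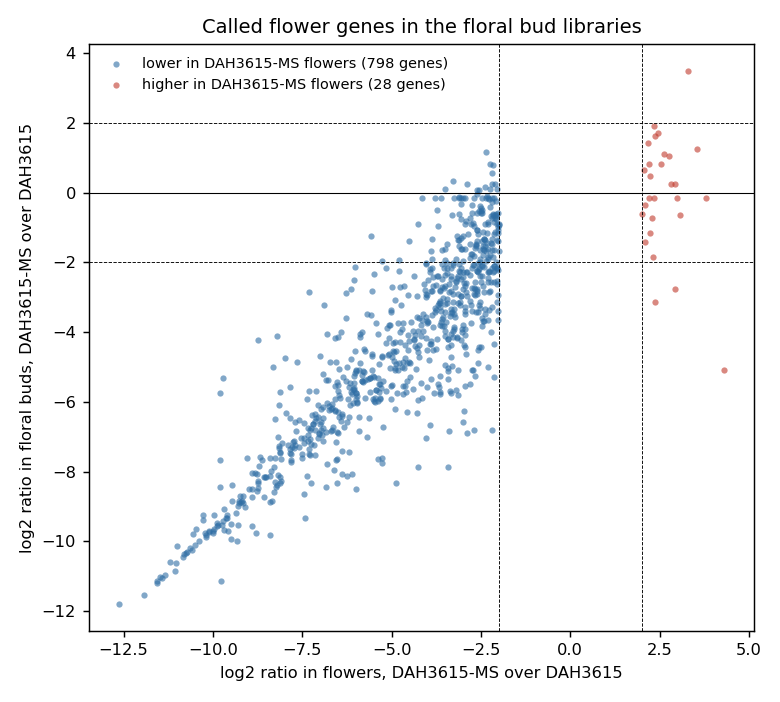
log2 ratio of DAH3615-MS over DAH3615 in floral buds (vertical axis) against that in flowers (horizontal axis) for the 798 genes lower (blue) and the 28 genes higher (red) in DAH3615-MS flowers, with counts under 3 set to 3 and dashed lines at 4-fold. Most blue points lie below the lower dashed line, as 636 of the 798 do, and the red points scatter around 0 in the buds.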

How the data were processed

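The deposited values are raw counts per gene, without normalization. Per the labels and the study's methods, the authors used Trimmomatic for adapter removal, TopHat2 with Bowtie2 for alignment of the read pairs to version 1 of the watermelon reference, and HTSeq for counting. Whether HTSeq used strand is not stated, and reads of near-identical genes cannot be told apart from the table. Coordinates are those of the count table.

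TMM factors over all 4 libraries (1.04 in DAH3615-MS flowers, 0.935 in DAH3615 flowers) were computed with edgeR 4.0.16 in R 4.3.3, and DESeq2 1.42.0 size factors served as an alternative. With 1 library per condition, no replicate test was run. Log2 ratios are DAH3615-MS over DAH3615, with counts under 3 set to 3, and called at 4-fold with at least 20 counts in the higher library. Ratios in brackets are folds lower in DAH3615-MS, on the counts as they are. The 95% interval of a ratio is a conditional binomial (Clopper-Pearson) interval without that floor. The scripts were checked on simulated counts.

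Gene descriptions and UniProt identifiers came from the study's supplement, for 1999 gene rows. Named genes were the 10 largest ratios and the 10 most abundant genes in each direction, the 15 described genes with the largest ratios, matched qRT-PCR genes, called list members and members of runs of neighbouring lower genes, and others are marked or serve as uncalled list members for contrast. The members and lists were chosen with earlier results of these data known. Python 3.11.15, pandas 2.3.3, scipy 1.17.1 and matplotlib 3.10.9 were used.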

Additional observations from a re-analysis of the deposited data

Results flagged for a closer look

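Of the genes higher in DAH3615-MS flowers, 2 were at least 4-fold lower in DAH3615-MS floral buds, so that their ratios had opposite signs in the organs. Cla022857 on chromosome 11 had 91 counts in DAH3615-MS flowers and 5 in DAH3615 flowers (log2 ratio 4.31), and in floral buds 43 counts in DAH3615-MS, against 1299 in DAH3615 (log2 ratio -5.08). Its ratio in flowers was the largest among the higher genes. Cla020593 on chromosome 5 had 533 and 112 counts in flowers (log2 ratio 2.37) and 118 and 933 counts in floral buds (log2 ratio -3.15). In both genes the library with the most counts was that of DAH3615 floral buds, and the counts of DAH3615-MS were higher in the flower than in the bud. With 1 library per condition the difference between organs was not tested. Bud length differed between the lines, and its part in these ratios was not tested.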

How the results depend on the processing

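No paired analysis was possible because each condition had 1 library, so that the flower comparison holds no pairs. An additive model of line and organ over the 4 libraries was not run here. The count of lower genes was 760 with library totals in place of TMM, 793 with DESeq2 size factors, 865 without a minimum count, 658 with a minimum of 50 counts, 678 with a floor of 10 counts, 627 where the nearer bound of the counting interval had to pass 4-fold, 582 at 8-fold and 1470 at 2-fold. The count of higher genes depended more on the low counts behind it: it was 51 without a minimum, 10 with a minimum of 50 counts, 17 with a floor of 10, 8 by the interval bound, 5 at 8-fold and 303 at 2-fold. Library totals moved the median log2 ratio of all genes to 0.20, against 0.05 with TMM, and gave 39 higher genes. The share of DAH3615 flower counts on lower genes was 9.83% with library totals, 9.96% with a minimum of 50, 9.98% with a floor of 10, 9.64% by the interval bound, 8.98% at 8-fold and 13.7% at 2-fold. The higher genes shared with floral buds numbered 3 with library totals, 0 with a minimum of 50 or a floor of 10, and 34 at 2-fold. With 3 counts or fewer taken as absent, 384 genes were absent from DAH3615-MS flowers only, and 4 from DAH3615 flowers only. The number absent from DAH3615 flowers at 0 counts was 3 with a minimum of 10 counts and 0 with a minimum of 50. The sugar transporters, the heat shock gene, 1 of the 2 desiccation genes and the Ole e 1 and extensin family gene Cla001499, counted above among the pollen and the arabinogalactan lists, were no longer called with a minimum of 50 counts or a floor of 10. Depth limits the lowest genes: at 3 counts or fewer, presence in a library cannot be told from absence in the tissue.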

Other observations

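The lower genes were spread over the genome. Their share of the genes with a flower count was between 3.22% on chromosome 7 and 4.84% on chromosome 2, and the higher genes numbered at most 4 on any chromosome. Neighbours were taken in the order of the genes with a flower count, so genes without one were skipped. Of the 785 lower genes on chromosomes 1 to 11, 658 had no lower gene as a neighbour. In this order 43 pairs were adjacent, and 41 genes lay in 12 runs of 3 or more. How many would be adjacent by chance was not computed. Besides the runs given above, 4 neighbours on chromosome 8 (Cla022597 to Cla022600, 24948938 to 24972662) had 0 counts in DAH3615-MS flowers and 11036 in DAH3615 flowers. In the floral buds they had 2 and 7154 counts. On chromosome 6, Cla006728, Cla006729 and Cla006730 had 1 count together in DAH3615-MS flowers and 8356 in DAH3615 flowers. On chromosome 5, the run from Cla010063 to Cla010065 was less completely lost, with 146 and 5530 counts in flowers and 534 and 3922 in floral buds. None of these genes has a description in the table used here.

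The lower genes had a median annotated span of 1943.5 bp, introns included, the higher genes 1733 bp, and the other genes with at least 20 counts 2778 bp. None of the called genes overlapped another gene in the table's coordinates.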
